A study of Homo sapiens with 2 samples.

Results

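The genes described here encode the proteins of the mitochondrial ribosome. They were taken as the protein-coding genes of the RefSeq table for GRCh38.p14 (the hg38 build) whose symbol is MRPL or MRPS followed by a number, which gave 76 of 19974 protein-coding genes on chromosomes 1 to 22 and X, 49 MRPL and 27 MRPS genes on 21 chromosomes. MRPS18B, in the major histocompatibility interval of chromosome 6, was left out by that rule. Accessible chromatin was mapped with ATAC-seq, an assay that uses a transposase (Tn5) to cut DNA where it is accessible, in CAL27, an established cell line from a human oral squamous cell carcinoma of the tongue. The series holds 1 library of untreated cells (18248413 tags) and 1 of cells given 10 mM lactate for 24 h (15401276 tags), and asks how lactate changes the chromatin of these cells. Both libraries come from the same line with no other treatment named. With 1 library per group there is no replicate, no test and no p-value, so each difference is one between these particular libraries. Intervals are at 95%, exact, and reflect counting error alone.

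Mitochondria carry their own ribosomes, which translate the few proteins encoded by mitochondrial DNA, all of them subunits of the respiratory chain and the ATP synthase. The ribosomal RNAs come from mitochondrial DNA, but every protein of the large and small subunit is encoded in the nucleus, made in the cytosol and imported. The symbols MRPL and MRPS stand mostly, but not always, for proteins of the large and small subunit. Some of these proteins descend from bacterial ribosomal proteins and others were added in the mitochondrial lineage. Loss of single members is a known cause of combined respiratory chain deficiency. The promoters of nuclear genes for mitochondrial proteins often hold sites for NRF1, for GABPA and other ETS factors, and for YY1.

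The promoters of 6 members are printed because these members are named in the results below. MRPL38 and MRPL50 had the highest ratio of lactate to untreated height, relative to regions of like height. MRPL58 and MRPL54 had the lowest at their gene ends among members in the promoter table. MRPL46 shares its open region with MRPS11, and MRPL22 is the member whose gene-end regions are in the lactate list alone. Each sequence is the RefSeq promoter (GRCh38.p14, 250 bp before to 50 bp after the annotated start, written 5′ to 3′ on the strand of the gene). They lie at chr17:75904835-75905134 (minus strand), chr9:101398569-101398868 (minus), chr19:3762432-3762731 (plus), chr17:75012420-75012719 (plus), chr15:88467339-88467638 (minus) and chr5:154940823-154941122 (plus). Capitals mark the ETS motif CCGGAAG, the YY1 motif AAGATGGC and the ZNF143 motif on either strand. The NRF1 motif was also searched and has no match in these 6 windows.
MRPL38: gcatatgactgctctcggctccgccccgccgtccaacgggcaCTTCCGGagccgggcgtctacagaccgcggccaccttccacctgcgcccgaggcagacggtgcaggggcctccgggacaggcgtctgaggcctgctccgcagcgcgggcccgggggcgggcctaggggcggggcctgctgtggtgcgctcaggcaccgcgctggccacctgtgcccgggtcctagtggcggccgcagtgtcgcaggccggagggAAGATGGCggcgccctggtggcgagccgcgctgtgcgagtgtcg
MRPL50: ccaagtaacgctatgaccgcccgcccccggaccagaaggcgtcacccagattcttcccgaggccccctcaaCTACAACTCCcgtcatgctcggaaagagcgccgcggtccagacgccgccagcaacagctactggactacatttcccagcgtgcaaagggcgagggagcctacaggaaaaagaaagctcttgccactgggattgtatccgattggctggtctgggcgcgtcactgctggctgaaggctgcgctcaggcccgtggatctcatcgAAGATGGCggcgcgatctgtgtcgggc
MRPL54: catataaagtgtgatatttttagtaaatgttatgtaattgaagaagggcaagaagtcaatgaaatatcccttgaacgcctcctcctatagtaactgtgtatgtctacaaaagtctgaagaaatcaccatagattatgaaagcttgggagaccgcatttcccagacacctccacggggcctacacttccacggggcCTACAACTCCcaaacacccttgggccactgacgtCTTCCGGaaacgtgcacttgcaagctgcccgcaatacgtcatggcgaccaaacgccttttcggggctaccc
MRPL58: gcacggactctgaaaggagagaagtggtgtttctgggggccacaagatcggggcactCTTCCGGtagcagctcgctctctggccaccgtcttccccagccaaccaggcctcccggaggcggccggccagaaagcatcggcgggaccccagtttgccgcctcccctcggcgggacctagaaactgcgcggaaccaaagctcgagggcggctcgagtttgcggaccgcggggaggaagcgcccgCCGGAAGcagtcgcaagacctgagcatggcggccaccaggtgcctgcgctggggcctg
MRPL46: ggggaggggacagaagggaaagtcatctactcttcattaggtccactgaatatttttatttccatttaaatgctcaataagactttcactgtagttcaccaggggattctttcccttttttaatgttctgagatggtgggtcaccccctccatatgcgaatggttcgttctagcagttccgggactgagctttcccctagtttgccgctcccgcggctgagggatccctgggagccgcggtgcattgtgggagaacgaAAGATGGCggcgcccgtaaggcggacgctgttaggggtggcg
MRPL22: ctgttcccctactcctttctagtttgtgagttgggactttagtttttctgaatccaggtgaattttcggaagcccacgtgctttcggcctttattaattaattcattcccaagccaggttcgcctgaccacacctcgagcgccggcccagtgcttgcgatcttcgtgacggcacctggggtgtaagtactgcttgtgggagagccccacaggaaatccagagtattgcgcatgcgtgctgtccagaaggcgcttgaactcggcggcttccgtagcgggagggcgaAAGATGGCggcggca
In MRPL38, MRPL50, MRPL46 and MRPL22 the YY1 letters began 6, 23, 8 and 35 bp after the start, counting the start as 0. MRPL54 and MRPL58 had ETS letters beginning 21 and 8 bp before it, with a further match 193 bp before it in MRPL58, and MRPL38 had ETS letters 208 bp before it. The ZNF143 letters of MRPL54 began 55 bp before the start and those of MRPL50 179 bp before it.

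Nearly all members were open in both libraries. A region counted for a gene when it reached within 1 kb of either annotated gene end. By this rule 72 of the 76 members (94.7%) had a region in both lists, against 61.8% of all protein-coding genes. MRPL22 alone had a region in the lactate list and none in the untreated list (1.32% of members, against 6.09% of all genes). No member had a region in the untreated list only (0.836% of all genes), and MRPL23, MRPL24 and MRPL35 (3.95%) had none in either list, against 31.3% of all genes. All 27 MRPS genes were open in both libraries, and the 4 exceptions were MRPL genes.

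The gene-end rule missed a start site in at least 1 of these exceptions. The promoter table gives a start, and so a strand, for 68 members. It holds no entry for MRPL2, MRPL10, MRPL13, MRPL15, MRPL21, MRPL23, MRPL35 and MRPS28. Of the 68, all had a region within 1 kb of the start in the lactate list, and 67 of them also in the untreated list, against 60.8% of 15812 genes with a start in both lists, 5.36% in the lactate list alone, 0.721% in the untreated list alone and 33.2% in neither. MRPL24, which encodes a large-subunit protein of bacterial type, has its table start inside the annotated gene span. The region there (chromosome 1, 156740699 to 156741629) had 67 untreated and 109 lactate tags, and ended 1087 bp from the annotated gene end in the untreated list, just outside the window.

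MRPL22, a large-subunit protein of bacterial type that lines the exit tunnel of the ribosome, had a lactate region right over its start (chromosome 5, 154940914 to 154941437) with 34 tags at the summit and a fold enrichment of 7.20 over local background, both values the authors' own. The untreated list held no region nearer than 2604 bp from a gene end. The untreated list does not give the height below its calling threshold, so no ratio can be formed. MRPL35 had its nearest regions 3415 bp (untreated, 71 tags) and 3641 bp (lactate, 131 tags) from its lower-coordinate end. MRPL23, another exit-tunnel protein, had weak regions of 12 and 11 tags at 2815 and 2995 bp. In MRPS6, counted as open in both, the untreated region (13 tags) and the lactate region (24 tags) lay side by side at the start without overlapping, so this member has no ratio either. MRPL14 was counted as open in both through a shared region with summits 984 and 973 bp upstream of its start (17 and 19 tags). Over the start itself only the lactate list held a region (chromosome 6, 44127300 to 44127499), with 14 tags.

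The height of a region was read as the tags at its highest summit, per 1000000 total tags of the library (RPM). Where several shared regions lay at the ends of a gene, the tallest was used. This gave a pair of values for 71 members at 70 distinct regions. In the untreated library the 71 values ran from 0.548 (MRPL13) through a median of 1.97 to 5.64 RPM (MRPL49 and MRPS17). In the lactate library they ran from 0.909 (MRPL52) through 3.25 to 13.6 RPM (MRPL50). The ranges overlap widely. In the lactate library 69 of the 71 members were taller and 2 (2.82%) were lower, against 3.24% lower among all genes. Among all 12373 genes with a shared gene-end region the medians were 1.86 and 3.51 RPM, so the members stood at about the height of other open genes in each library.

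**Figure D1:**
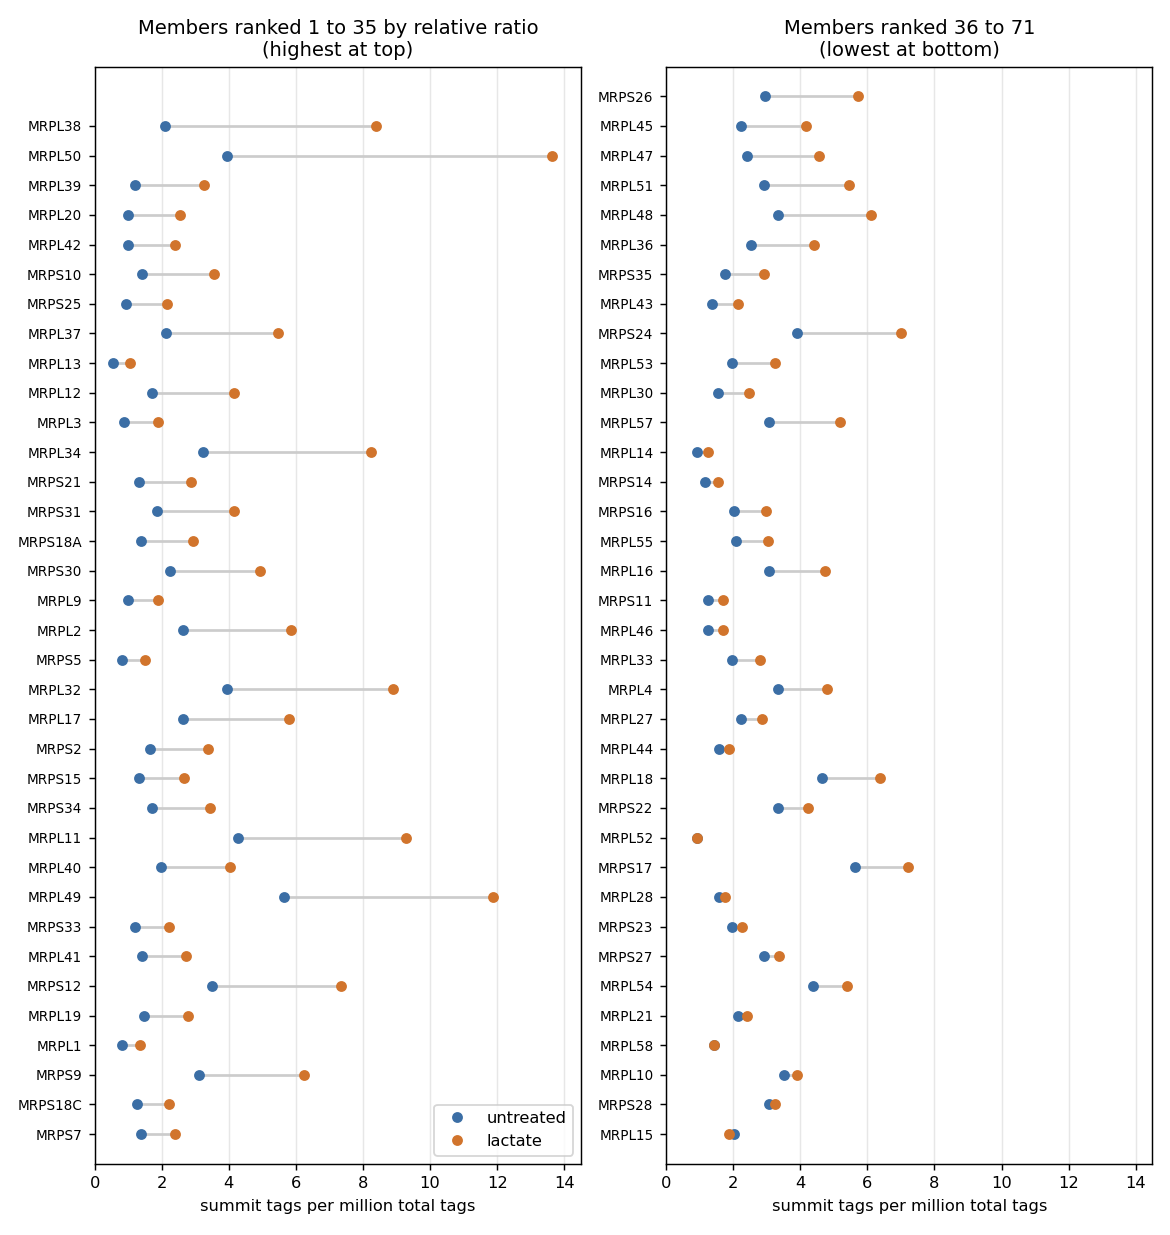
Summit height in RPM, tags per 1000000 total tags (x axis), of 71 members in the untreated library (blue) and in the lactate library (orange), 1 row per gene and 1 library per point, ordered by relative ratio from MRPL38 (2.07) down to MRPL15 (0.529). In the lowest-ranked rows the points lie close together, while MRPL50 reaches 13.6 in the lactate library.

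The ratio of lactate to untreated height had a median of 1.83 over the 71 members, against 1.84 over all genes with a shared gene-end region. It ran from 0.929 in MRPL15 to 4.02 in MRPL38. A ratio of 2 or more was found in 25 members (35.2%, against 39.1% of all genes) and a ratio below 1 in 2 members, MRPL15 and MRPL52 (2.82%, against 3.24%). The rise was of the same size as in other open genes, and it depends on the scaling. Per summit tag of all shared regions, instead of per total tag, the median ratio of the members was 1.04 and that of all genes 1.05. To set each gene against regions of like height, all shared regions were sorted by their summed summit tags into 20 equal bins, and each ratio was divided by its bin's median. This relative ratio had a median of 1.02 in the members and 1.04 in all genes.

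More members lay past the lower than past the upper limit of 1.5-fold. A relative ratio of 1.5 or more was found in 4 members, MRPL38, MRPL50, MRPL39 and MRPL20 (5.63%, against 11.1% of all genes). A relative ratio of 1/1.5 or less was found in 10 members (14.1%, against 6.29%). With their relative ratios these were MRPL15 (0.529), MRPS28 (0.580), MRPL10 (0.598), MRPL58 (0.604), MRPL21 (0.632), MRPL54 (0.634), MRPS27 (0.638), MRPS23 (0.656), MRPL28 (0.657) and MRPS17 (0.658). With all summits of a region summed in place of the highest, the high members numbered 8 (11.3%, against 14.55% of all genes) and the low ones 11 (15.5%, against 11.7%), so the contrast with all genes was smaller. Without narrow regions MRPL39 and MRPL20 fell below the upper limit, which left 2 members there (2.86%, against 9.27%). The members next above the lower limit were MRPL52 (0.669) and MRPS22 (0.679), and next below the upper limit stood MRPL42 (1.45) and MRPS10 (1.41). The counting interval lay wholly below 1 in 8 members (5.26% of all genes) and wholly above 1 in 2, MRPL38 and MRPL50 (7.81% of all genes). At start sites alone the members with 1/1.5 or less numbered 7 of 66 (10.6%, against 6.01% of all genes), and those with 1.5 or more again 4 (6.06%, against 11%). There the interval lay below 1 in 5 members (5.14% of all genes) and above 1 in 2 (7.98%), and the ratio itself was below 1 in 1, MRPL52 (2.97%).

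**Figure D2:**
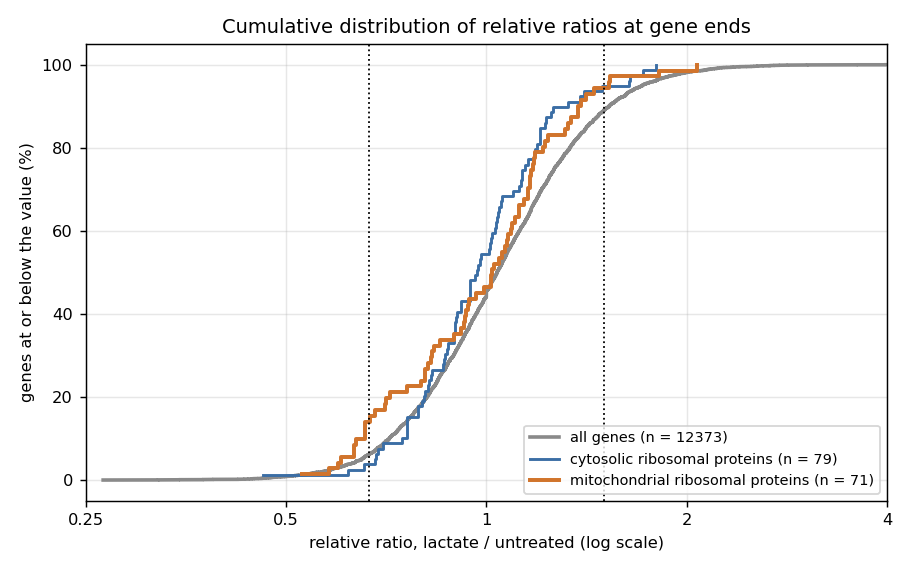
Cumulative share of genes (y axis, %) at or below a given relative ratio of lactate to untreated height (x axis, log scale) for 71 mitochondrial ribosomal protein genes (orange), 79 cytosolic ribosomal protein genes (blue) and all 12373 genes with a shared gene-end region (grey). Dotted lines mark 1/1.5 and 1.5, and at the left line the orange curve stands at 14.1%, the grey at 6.29% and the blue at 3.80%.

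MRPL38 and MRPL50 encode large-subunit proteins that were added in the mitochondrial lineage. MRPL38 had 38 tags in the untreated library (2.08 RPM) and 129 in the lactate library (8.38 RPM), a ratio of 4.02 (conditional Poisson interval 2.78 to 5.94) and a relative ratio of 2.07 (1.43 to 3.06). Its region (chromosome 17, 75904798 to 75905551) covers the start, and the summit lay 233 bp upstream of it in the untreated and 194 bp upstream in the lactate library. Summed over all its summits instead of the highest, the ratio was 2.59, and per summit tag of shared regions it was 2.30. MRPL50 had 72 tags (3.95 RPM) and 210 tags (13.6 RPM), a ratio of 3.46 (2.63 to 4.58) and a relative ratio of 1.81 (1.38 to 2.40). That region (chromosome 9, 101398113 to 101399141) also holds the start of ZNF189, a zinc finger gene on the other strand 233 bp away, so its height cannot be assigned to either gene. At the other end of MRPL50, 2 smaller shared regions had ratios of 1.05 (18 and 16 tags) and 0.976 (17 and 14 tags).

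The next highest members had fewer tags and intervals that reached below 1. MRPL39 went from 22 to 50 tags (1.21 and 3.25 RPM; relative ratio 1.53, 0.912 to 2.66), but with all summits summed its ratio went from 2.69 to 1.74 and its relative ratio was 1.03. A further region on its upstream side (chromosome 21, 25608020 to 25608588), at 17 and 41 tags, had a ratio of 2.86. MRPL20, of bacterial type, went from 18 to 39 tags (0.986 and 2.53 RPM; relative ratio 1.53, 0.854 to 2.84), and a window of 2 kb, which takes another region, gave 1.18. MRPL42 went from 18 to 37 tags (relative ratio 1.45, 0.805 to 2.71), but with all summits summed its relative ratio was 0.745. MRPS10, the highest of the small subunit, went from 26 to 55 tags (relative ratio 1.41, 0.869 to 2.34).

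The lowest members kept nearly the same number of tags per total tag in both libraries. MRPL15, of bacterial type, had 37 untreated and 29 lactate tags (2.03 and 1.88 RPM), a relative ratio of 0.529 (0.314 to 0.884). MRPS28, of the small subunit, had 56 and 50 tags (3.07 and 3.25 RPM), a relative ratio of 0.580 (0.388 to 0.865), or 0.683 with all summits summed. Both genes lie on chromosome 8, where the other member, MRPL13, had a relative ratio of 1.37 from 10 and 16 tags, with a wide interval (0.585 to 3.38). MRPL58, which is built into the large subunit and can release peptides from stalled ribosomes, had 26 and 22 tags (1.425 and 1.428 RPM), a relative ratio of 0.604 (0.327 to 1.11). With all summits summed its ratio was 1.64 and its relative ratio 0.984, so it was no longer among the low members. MRPL21 had 39 and 37 tags (2.14 and 2.40 RPM; relative ratio 0.632, 0.392 to 1.02).

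MRPL54 was low and was also among the tallest members in untreated cells, with 80 and 83 tags (4.38 and 5.39 RPM). Its relative ratio was 0.634 (0.460 to 0.872), or 0.778 with all summits summed. Its region covers the start (chromosome 19, 3762437 to 3763173). A further region at 3761569 to 3762152, which holds the start of APBA3, had 39 and 34 tags and a ratio of 1.03. MRPL10, a protein of the ribosomal stalk, illustrates the limit of the gene-end rule. Its value of 0.598 (0.413 to 0.864), from 64 and 60 tags, belongs to a region below its lower-coordinate end (chromosome 17, 47821427 to 47822368). The region at its upper-coordinate end (47830989 to 47832041) had 28 and 35 tags and a ratio of 1.48, and with a window of 500 bp, which leaves that region alone, the relative ratio of MRPL10 was 0.868.

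The tallest members in untreated cells divided between those that rose with the common shift and those that did not. Untreated height is also the divisor of the ratio, so the choice of these members is not independent of it. MRPL49 and MRPS17 both had 103 untreated tags (5.64 RPM). MRPL49 reached 183 lactate tags (11.9 RPM; relative ratio 1.10, 0.863 to 1.42), in a region shared with FAU, the gene of a cytosolic ribosomal protein whose start lies 49 bp away on the other strand. MRPS17 reached 111 tags (7.21 RPM; relative ratio 0.658, 0.499 to 0.869, or 0.698 with all summits summed). MRPL18 had 85 and 98 tags (4.66 and 6.36 RPM; relative ratio 0.704, 0.521 to 0.953). MRPL11, at the base of the ribosomal stalk, had 78 and 143 tags (4.27 and 9.28 RPM; relative ratio 1.12, 0.844 to 1.49). MRPL32 had 72 and 137 tags (3.95 and 8.90 RPM; relative ratio 1.16, 0.867 to 1.57).

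Members named for their role stood between these extremes. MRPL12, the stalk protein that also binds mitochondrial RNA polymerase, had 31 and 64 tags (1.70 and 4.16 RPM; relative ratio 1.34, 0.861 to 2.13). MRPL3, a core protein of the large subunit, had 16 and 29 tags (0.877 and 1.88 RPM; relative ratio 1.32, 0.696 to 2.61), which became 0.687 with all summits summed. For MRPL44, related to ribonuclease III, the rule took a narrow region past the far end of the gene with 29 tags in each library. At its start the region (chromosome 2, 223956944 to 223957468) had 33 and 30 tags and a relative ratio of 0.631 (0.372 to 1.07).

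Among the small-subunit members, MRPS12, part of the decoding centre, had 64 and 113 tags (3.51 and 7.34 RPM; relative ratio 1.08, 0.787 to 1.49). MRPS22, in which mutations cause a respiratory chain deficiency, had 61 and 65 tags (3.34 and 4.22 RPM; relative ratio 0.679, 0.472 to 0.980). MRPS16, also a disease gene, had 37 and 46 tags (relative ratio 0.829, 0.526 to 1.31). The first of these rose with the common shift, and the interval of MRPS22 lay below 1. MRPS2 had 30 and 52 tags (relative ratio 1.16, 0.724 to 1.88), MRPS7 25 and 37 tags (1.03, 0.602 to 1.78) and MRPS34 31 and 53 tags (1.14, 0.718 to 1.84). Their intervals all hold 1. With all summits summed the ratio of MRPS34 went from 2.03 to 1.25 and its relative ratio to 0.742.

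By symbol (MRPL or MRPS, which is not quite the same as subunit) and by evolutionary origin the medians lay close together, with no test of the difference. The 45 MRPL genes with a pair of values had a median relative ratio of 0.993 and the 26 MRPS genes one of 1.05. The 4 members at 1.5 or more were all MRPL genes, and of the 10 at 1/1.5 or less 6 were MRPL and 4 MRPS genes. By the standard protein names in the RefSeq synonyms, 44 members are homologues of bacterial ribosomal proteins and 30 are specific to mitochondria, while 2 (MRPS24 and MRPS28) carry no such name there. The median relative ratios were 1.04 (39 genes with values) and 1.02 (30 genes). The 4 members without a gene-end region in both lists were all of bacterial type.

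At the start sites the open regions of the members were placed alike in both libraries. For 66 members with a start in the table and a shared region there, the highest summit lay at a median of 60 bp upstream of the start in the untreated and 61.5 bp upstream in the lactate library. It lay within 150 bp of the start in 53 members (80.3%) in each library, against 55.0% and 58.5% of 9610 genes. The summits of the libraries lay within 50 bp of each other in 58 members (87.9%), against 69.9% of all genes. In 61 cytosolic ribosomal protein genes the summit lay within 150 bp of the start in 73.8% in each library. Their summits lay within 50 bp of each other in 75.4%. The largest shifts were in MRPL18, from 596 bp downstream to 85 bp upstream, in MRPL51, from 41 to 712 bp upstream, and in MRPS24, from 524 to 125 bp upstream. Each of these regions held more than 1 summit in both libraries. The median width of the regions was 757 bp in the untreated and 739.5 bp in the lactate library (793 and 784 bp for all genes), and the widest, at MRPL36, spanned 1763 and 2067 bp.

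**Figure D3:**
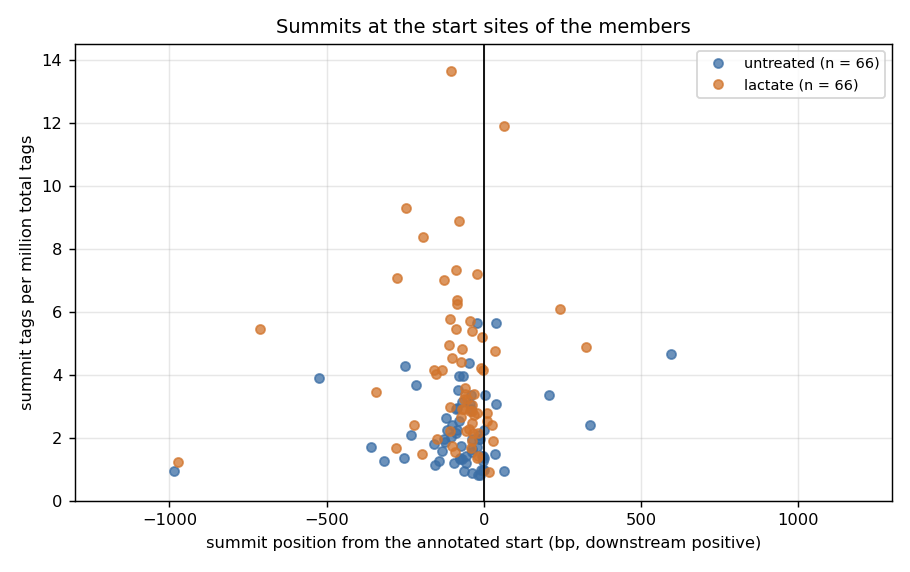
Position of the highest summit from the annotated start (x axis, bp, downstream positive) against its height in tags per 1000000 total tags (y axis) for 66 members, untreated in blue and lactate in orange, 1 point per gene and library. Most points lie within 150 bp of the start in both libraries, 53 of 66 in each, and the orange points reach higher.

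In all, 96 merged regions lay at the gene ends of the members, of which 82 (85.4%) were in both lists, 7 (7.29%) in the lactate list alone and 7 (7.29%) in the untreated list alone. At all gene ends the shares were 79.4%, 15.6% and 5.02%. The lactate-only regions had 9 tags (MRPS7) to 34 tags (MRPL22, its only one) and the untreated-only ones 9 tags (MRPL1) to 17 tags (MRPS17). Some members had a second shared region of about the members' median height, such as MRPL34, whose start-site region had 44 and 75 tags, MRPL4, with 40 and 63, and MRPL2, with 37 and 55. Away from the annotated ends, 26 members held regions within the gene, a count that was not made for all genes. It includes MRPL24, whose region there is the one at its table start. The tallest region within a gene, in MRPS9, had 278 untreated and 391 lactate tags, and 1 within MRPL13 had 82 and 186.

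The ETS and YY1 motifs were found more often in the members' promoters than in those of other genes, as a description with no test. Of the 68 members in the promoter table, 29 (42.6%) held the ETS motif CCGGAAG on either strand, against 20.2% of 9610 genes with a shared start-site region and 14.2% of all 15812 promoters of the same length. The YY1 motif AAGATGGC was in 19 (27.9%), against 5.45% and 3.91%. In 40 members (58.8%) at least 1 of these was present, against 24.3% and 17.2%. No member had the ETS and YY1 letters overlapping, but such overlaps were rare everywhere (0.0208% and 0.0316%). The shares were 34.4% for ETS and 9.38% for YY1 in 64 cytosolic ribosomal protein genes. A match describes the letters in this window and says nothing of binding.

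Of the other motifs, ZNF143 stood above the share of open genes and the rest near or below it. The NRF1 motif was in 8 members (11.8%, against 12.3% of genes with a shared start-site region and 8.59% of all promoters), the SP1 motif GGGCGG in 42 (61.8%, against 71.1% and 58.5%) and CCAAT, the NFY motif, in 20 (29.4%, against 38.1% and 36.3%). The E-box CACGTG was in 6 (8.82%, against 10.3% and 8.87%), the ZNF143 motif in 4 (5.88%, against 2.74% and 1.75%) and the CRE TGACGTCA in 0 (against 3.39% and 2.59%). The median share of G and C was 60.7% in the members and 65.3% in open genes. ETS letters in the members began at a median of 22 bp before the start (46 bp in open genes) and YY1 letters 9 bp after it (10 bp). Members with the ETS motif had a median relative ratio of 0.993 (29 genes) and those without it 1.07 (37 genes), and with and without the YY1 motif the medians were 1.05 (18 genes) and 1.01 (48 genes).

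**Figure D4:**
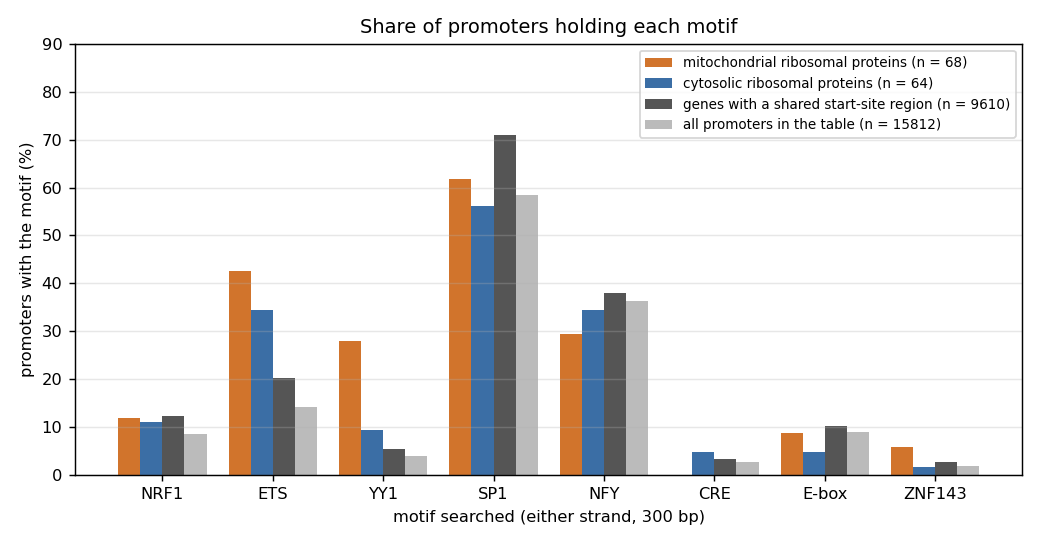
Share of promoters (y axis, %) holding each of 8 motifs on either strand of the 300 bp window (x axis) in 68 mitochondrial ribosomal protein genes (orange), 64 cytosolic ribosomal protein genes (blue), 9610 genes with a shared start-site region (dark grey) and all 15812 promoters (light grey). The orange bar stands above the others for ETS (42.6%) and YY1 (27.9%), and below open genes for SP1 (61.8% against 71.1%).

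Several members have a close neighbour that is read in the other direction. The start of a protein-coding gene on the other strand lay within 1 kb of the start in 21 of 68 members (30.9%), against 12.5% of all 15812 genes and 20.3% of the cytosolic ribosomal protein genes. Among the 9610 genes with a shared start-site region, 1805 had such a neighbour, a larger share than among all genes. Since some genes are missing from the promoter table, these values are lower limits. The neighbours include SARS2, the mitochondrial seryl-tRNA synthetase, 181 bp upstream of MRPS12, PSMA2, a proteasome subunit, 202 bp upstream of MRPL32, and TCP1, a subunit of the cytosolic chaperonin, 210 bp upstream of MRPL18. In 1 case both genes are members. MRPL46 and MRPS11, of the large and the small subunit, start 320 bp apart and share a region (chromosome 15, 88467053 to 88467968) with 23 untreated and 26 lactate tags, a relative ratio of 0.807. Members with such a neighbour had a median relative ratio of 1.03 (21 genes) and those without 1.02 (45 genes).

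Most other genes of mitochondrial translation also had open ends. Of 5 proteins of the mitochondrial ribosome with other symbols, DAP3, PTCD3, AURKAIP1 and GADD45GIP1 were open in both libraries and CHCHD1 in the lactate library alone. All 23 genes of ribosome assembly and ribosomal RNA modification were open in both, with a median relative ratio of 0.95, 1 at 1.5 or more (the GTPase gene MTG1, 17 and 43 tags, 1.76, 0.981 to 3.29) and 1 at 1/1.5 or less (RPUSD4, 31 and 26 tags, 0.592, 0.338 to 1.03). Of 14 translation factors 13 were open in both (median 1.0, none past either limit), and MTFMT, which formylates the initiator tRNA, was open in the untreated library alone. Of 19 mitochondrial aminoacyl-tRNA synthetases 17 were open in both (median 1.03), and the highest was RARS2 (35 and 104 tags, 1.86, 1.26 to 2.81).

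Genes of mitochondrial DNA transcription and RNA maturation had a median relative ratio of 0.943. Of these, 12 of 14 were open in both (85.7%, against 61.8% of all genes). SLIRP and MTPAP were open in the lactate library alone (14.3%, against 6.09%). The lowest was SUPV3L1, an RNA helicase (41 and 27 tags, 0.445, 0.263 to 0.740). Of 11 nuclear regulators of mitochondrial genes 10 (90.9%) were open in both and PPARGC1B, a coactivator, in the lactate library alone (9.09%). Of the 10, 2 had a relative ratio of 1.5 or more (20%, against 11.1% of all genes) and 0 had 1/1.5 or less (against 6.29%). The highest was PPARGC1A, with 8 and 18 tags (1.93, 0.798 to 5.13), and YY1 had 15 and 36 tags (1.71, 0.915 to 3.37). GABPA, the ETS factor, was the lowest, with 64 and 70 tags (0.685, 0.481 to 0.977). Among the cytosolic ribosomal protein genes 79 of 81 (97.5%) were open in both, with a median relative ratio of 0.969. Of these, 4 (5.06%) stood at 1.5 or more and 3 (3.80%) at 1/1.5 or less, beside the 5.63% and 14.1% of the mitochondrial ones.

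The label of the line was checked on markers. Of 14 squamous epithelial genes 12 were open at a gene end in both lists (85.7%, against 61.8% of all genes) and 2, TP63 and KRT14, in neither. The rule sees annotated gene ends only, and regions inside the marker genes are not given here. Of the markers of other cell types, 6 of 6 endothelial, 4 of 8 fibroblast and 3 of 8 leukocyte genes had none in either library, against 31.3% of all genes. Open in both lists were 3 of 8 fibroblast genes (37.5%) and 5 of 8 leukocyte genes (62.5%), the latter near the share of all genes. The shared regions held 16.4% of the untreated and 28.7% of the lactate tags at their summits, and library and treatment cannot be told apart here.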

How the data were processed

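ATAC-seq peak lists of 2 CAL27 libraries were used, grouped by the treatment label. Alignment to hg38 used BWA 0.7.12 after fastp 0.20.0, with MACS2 2.1.0 also listed, per the submitters' processing notes, while the file headers name MACS 2.2.7.1. The authors called peaks on each library separately, per the file headers, without a control, at a q-value of 0.05, with a shift of 100 bp and an extension of 200 bp that centre each tag on the Tn5 cut. The deposited pileup is a signal, the number of extended tags over a summit, not scaled for depth. The deposited fold enrichment is the ratio of pileup to local background in that library, and describes single regions only.

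Regions of both lists overlapping by at least 1 bp were merged, and each library's highest pileup was expressed per total tag. Intervals for ratios are exact conditional Poisson intervals, and summit tags chosen for their height are not independent draws. Gene positions, starts and promoter sequences came from RefSeq tables (GRCh38.p14), with promoter entries for 68 of 76 members. Overlaps were checked against bedtools, and the relative ratio was tested on simulated data. The members, gene lists and motifs were chosen with earlier results of these data known. Other lists are described by a few genes each. The grouping by bacterial or mitochondrial origin was added after the values had been seen. Named members are those without a region in both lists, the 6 highest and 6 lowest relative ratios, the 6 tallest in untreated cells and 10 chosen by role. Python 3.11.15, scipy 1.17.1 and pandas 2.3.3 were used. The study's CUT&Tag and RNA-seq data were not analysed here.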

Additional observations from a re-analysis of the deposited data

How the results depend on the processing

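No paired analysis was possible because there is a single library in each group. Of the alternative values of the summary results, 65 stayed within counting error or within 1.5 times a count and 11 moved. Members open in the lactate list alone numbered 2 with a window of 500 bp (5.93% of all genes) and 3 (7.995% of all genes) when only regions with a −log10 p of 7 or more were kept. Members open in the untreated list alone numbered 1 at that threshold (0.896% of all genes) and 3 with equal numbers of regions by fold enrichment (4.01% of all genes, 3.95% of members). No member with a known start lacked a start-site region in both lists (0 in neither). With all summits of a region summed, the median ratio was 1.5 (1.68 for all genes), the median relative ratio 0.902 (1.0 for all genes) and 8 members stood at 1.5 or more (11.3%, against 14.55% of all genes). Without narrow regions 2 members stood there (2.86%, against 9.27%). Scaled by the summit tags of shared regions, the median ratio was 1.04 (1.05 for all genes). There 1 member had a ratio of 2 or more, but the share of all genes was not counted at this scaling. The count of members at a relative ratio of 1/1.5 or less lay between 7 (start sites) and 12, with 5.57% to 11.7% of all genes past it. The depth limits single genes: MRPL53, with 36 and 50 tags as at the medians, had a relative ratio of 0.926 with an interval of 0.591 to 1.46, which reaches past the lower limit.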
